A study of Mus musculus with 36 samples.

Results

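The mitotic cell cycle genes described here are 43 mouse genes that act in S phase and mitosis, taken by symbol from a set list, out of 53379 genes counted in the series. Each of the 43 was found in the count tables, and each passed the filter on low counts in every one of the 9 comparisons made. As background, a dividing cell first loads the MCM helicase onto DNA, then copies its DNA and builds nucleotides for it, and then condenses and separates the copies on a spindle. E2F transcription factors drive the replication genes early in this order, while B-MYB and FOXM1, each bound to the MuvB complex, drive the mitosis genes late. Most cells of the adult kidney do not divide, whereas the fetal kidney is built by rapid division.

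RNA was sequenced from fixed and embedded tissue of mice carrying ASPSCR1-TFE3, the gene fusion of a subset of translocation renal cell carcinomas. In Sglt2-Cre; ASPSCR1-TFE3 LSL/+ mice, Cre under the promoter of a proximal tubule glucose transporter removes a stop cassette in front of the fusion. Those 6 fusion mice gave 11 kidney tumors (6 mice), 4 retro-orbital tumors (mice 2, 3, 5 and 6), 3 brain tumors (mice 1, 2 and 4) and 4 non-transformed kidney samples (mice 1, 3, 4 and 5), and 3 Sglt2-Cre mice without the fusion gave 6 control kidney samples. In the second model, kidneys came from 5 Pax8-Cre; ASPSCR1-TFE3 LSL/+ fetuses, called dysmorphic, and from 3 control fetuses of matched age. The labels give the control fetuses as Pax8-Cre, while the design text also allows carriers of the unrecombined fusion allele among them. All groups therefore carried a kidney Cre driver or the silent allele, and no age was given for the adult mice. Levels below are CPM (counts scaled to a common library size) after TMM scaling over all samples, with the libraries of a mouse and tissue summed, so n counts animals.

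Libraries held 80205573 to 121415057 counts. The labels were checked on Gpnmb, a direct target of MiT/TFE factors, which measured 1.54 to 2.47 CPM in control kidneys, 111 to 447 in non-transformed kidneys, 2826 to 7325 in kidney tumors and 2829 to 4755 in the tumors of other sites. It was 0.442 to 6.49 CPM in control and 15.2 to 553 in dysmorphic fetal kidneys, below every tumor. Several samples held transcripts that mark normal tubule, brain or skeletal muscle. Whether these came from admixed tissue or from the tumor or kidney cells themselves was not tested. Summed proximal tubule markers (8 genes) were 11259 to 12466 CPM in control kidneys, 2519, 8083 and 7264 in the kidney tumors of mice 1, 4 and 5, and 638 to 648 in those of mice 2, 3 and 6. Brain markers (10 genes) summed to 1745 CPM in the brain tumor of mouse 2, 435 in that of mouse 4 and 129 in that of mouse 1. Skeletal muscle markers (8 genes) summed to 2585 to 5983 CPM in dysmorphic and 1083 to 1356 in control fetal kidneys. Pax8, which marks renal epithelium, was 25.4 and 37.3 CPM in control fetuses 1 and 2, 2.03 in control fetus 3 and 0.212 to 8.47 in the dysmorphic kidneys. Adult control kidneys had Pax8 at 61.9 to 66.6 CPM and kidney tumors at 30.1 to 52.4, whereas the retro-orbital site gave 0.204 to 3.36 and the brain site 0.271 to 1.02. Fusion mice 1 and 5 were male by Y-linked transcripts and the other fusion mice and all adult controls were female. In bulk tissue, fewer cells of a type and less RNA per cell cannot be told apart.

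RefSeq promoter windows on GRCm38.p6, from 250 bases before the start of the gene to 50 after it, were matched for 35 of the 43 genes. The 5 shown are a kinase, a cyclin and a checkpoint gene of mitosis that rose strongly in tumors, a helicase subunit that rose less, and thymidylate synthase, which did not rise. Capitals mark exact matches on either strand to TTTGAA or TTCGAA (the cell cycle homology region of late cell cycle promoters), CCAAT, the E2F words TTTCCCGC, TTTCGCGC, TTTGGCGC and TTTGCCGC, and TCACGTG (the E-box word of MiT/TFE factors), and adjoining matches run together.
Cdk1 (chr10:69352863-69353162, minus strand): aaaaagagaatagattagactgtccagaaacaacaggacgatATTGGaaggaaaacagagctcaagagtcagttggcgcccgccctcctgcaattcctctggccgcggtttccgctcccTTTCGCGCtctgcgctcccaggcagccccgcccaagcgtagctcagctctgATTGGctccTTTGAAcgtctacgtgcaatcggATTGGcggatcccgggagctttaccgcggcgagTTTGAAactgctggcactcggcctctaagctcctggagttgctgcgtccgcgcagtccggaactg
Ccnb1 (chr13:100786437-100786736, minus strand): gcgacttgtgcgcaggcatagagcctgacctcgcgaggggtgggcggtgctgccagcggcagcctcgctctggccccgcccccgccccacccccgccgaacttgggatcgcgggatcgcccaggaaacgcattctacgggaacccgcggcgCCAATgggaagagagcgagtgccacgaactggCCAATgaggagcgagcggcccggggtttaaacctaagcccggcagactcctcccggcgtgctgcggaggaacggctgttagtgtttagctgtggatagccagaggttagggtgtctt
Bub1 (chr2:127831810-127832109, minus strand): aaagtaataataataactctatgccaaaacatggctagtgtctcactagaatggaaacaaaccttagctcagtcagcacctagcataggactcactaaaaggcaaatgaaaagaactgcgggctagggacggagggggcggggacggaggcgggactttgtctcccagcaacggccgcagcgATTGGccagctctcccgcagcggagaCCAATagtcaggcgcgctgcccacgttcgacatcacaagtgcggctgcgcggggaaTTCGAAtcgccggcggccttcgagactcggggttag
Mcm6 (chr1:128359656-128359955, minus strand): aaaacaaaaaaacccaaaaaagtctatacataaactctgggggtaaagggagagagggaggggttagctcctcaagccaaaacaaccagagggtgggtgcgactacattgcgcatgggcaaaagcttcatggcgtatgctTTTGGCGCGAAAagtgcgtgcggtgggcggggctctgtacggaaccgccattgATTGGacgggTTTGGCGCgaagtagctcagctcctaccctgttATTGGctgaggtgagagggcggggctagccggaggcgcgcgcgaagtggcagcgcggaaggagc
Tyms (chr5:30073576-30073875, minus strand): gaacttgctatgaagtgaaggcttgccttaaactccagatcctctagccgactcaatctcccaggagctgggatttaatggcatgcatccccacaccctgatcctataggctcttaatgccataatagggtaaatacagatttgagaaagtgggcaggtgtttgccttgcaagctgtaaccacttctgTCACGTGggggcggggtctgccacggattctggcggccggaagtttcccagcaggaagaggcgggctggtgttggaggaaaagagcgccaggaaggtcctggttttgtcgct
Among the 35 genes with a window, the homology region words were found in 20 (57.1%), compared to 19.2% of all 32851 promoter windows. CCAAT was found in 26 (74.3%), compared to 37.4% of all windows. The E2F words were found in 4 (11.4%), compared to 2.26% of all windows, and TCACGTG in 3 (8.57%), compared to 3.77%. The Cdk1 window held 2 homology region words, 3 CCAAT words and 1 E2F word, and the Mcm6 window held 3 overlapping or single E2F words and 2 CCAAT words. The window of Tyms held TCACGTG alone. These matches describe letters and were not tested as binding sites. Windows were not matched for Ccna2, Ccne2, Aurkb, Tpx2, Kif20a, Dlgap5, Esco2 and Foxm1.

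Across the 7 groups, the mean level of the 43 genes was lowest in adult kidney with or without the fusion, higher in kidney tumors, higher again in retro-orbital tumors and highest in fetal kidneys, with brain tumors spread between. The geometric mean level of the 43 genes was 1.98 to 2.5 CPM in the 3 control kidneys and 1.43 to 2.36 in the 4 non-transformed kidneys, so these groups overlapped. It was 12.8 to 17.3 CPM in kidney tumors of the 6 mice and 23.8 to 35.5 in the 4 retro-orbital tumors. Brain tumors gave 51.3, 16.6 and 21.6 CPM in mice 1, 2 and 4. Control fetal kidneys gave 59.8 to 61.4 CPM and dysmorphic ones 49.8 to 65.8. The lowest fetal kidney lay above every kidney tumor for 40 of the 43 genes, with Mcm2, Rrm2 and E2f1 as the exceptions, and above every retro-orbital tumor for 32. The share of all genes that met this was not worked out. Age, Cre driver and count table also differ between fetal kidneys and tumors.

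**Figure D1:**
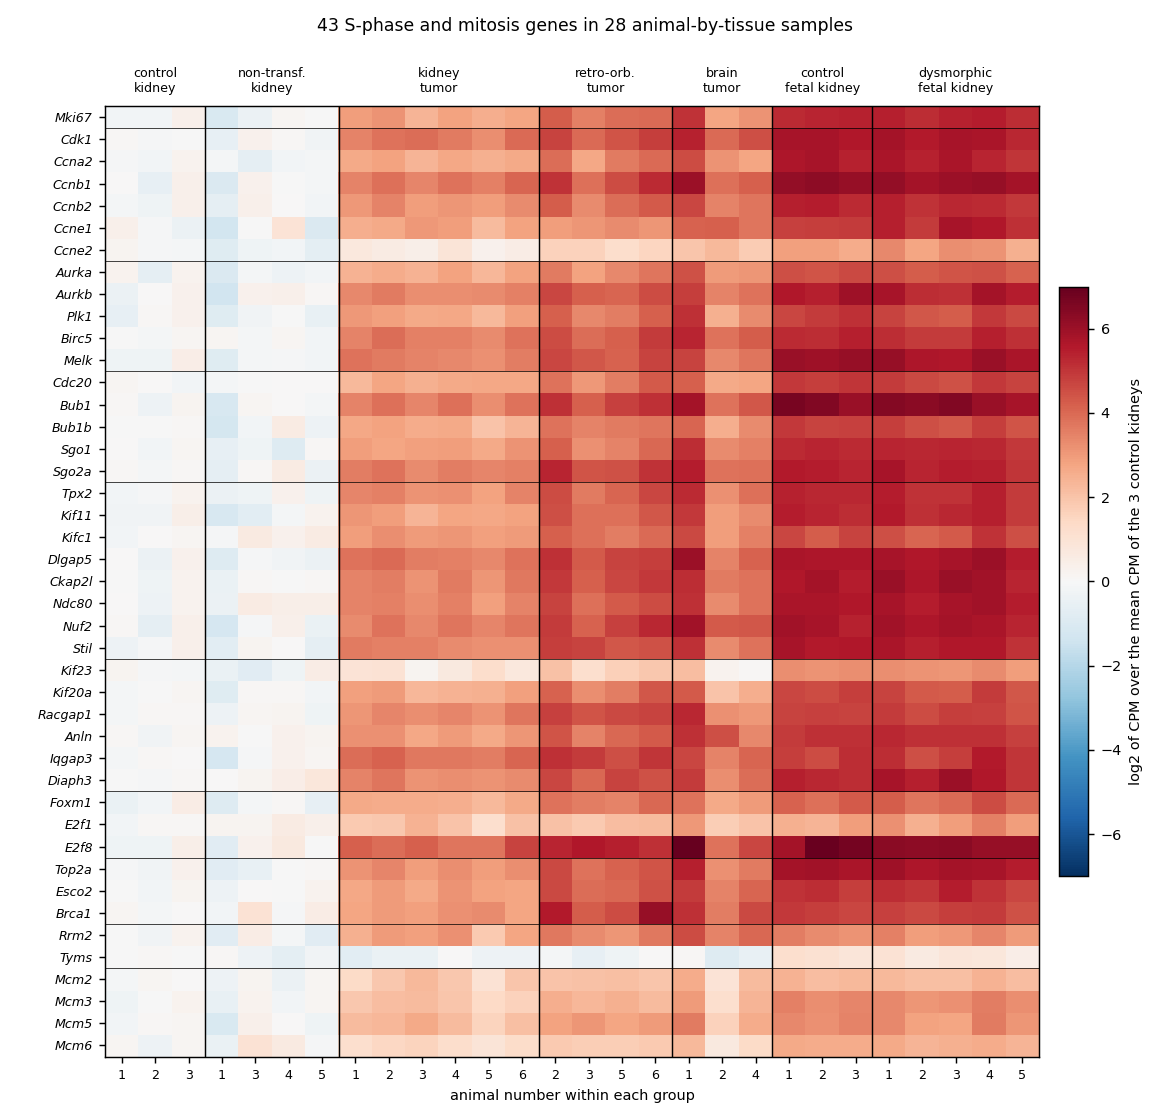
Level of each of the 43 genes (rows, ordered by role) in each animal and tissue (columns, numbered by animal within the group), as log2 of its CPM over the mean of the 3 control kidneys. Kidney tumors are higher than control kidneys in all rows but Tyms, the brain tumor of mouse 1 is darker than those of mice 2 and 4, and fetal kidneys are darkest in most rows.

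Mki67 encodes the Ki-67 protein that coats mitotic chromosomes and serves as the standard stain for dividing cells (chromosome 7, 135689784 to 135716361 on GRCm38, minus strand). It measured 35.4, 36.3 and 51.8 CPM in control kidneys 1 to 3, and 19.99, 30.5, 45.5 and 40.1 in the non-transformed kidneys of mice 1, 3, 4 and 5. In kidney tumors the lowest was 217 CPM, the median 286 and the highest 363 (284 ± 53.0, SD, n = 6 mice). Retro-orbital tumors of mice 2, 3, 5 and 6 gave 790, 469, 611 and 650 CPM. All 4 lay above every kidney tumor, with mouse 3 the lowest. Brain tumors gave 1393 CPM in mouse 1 and only 280 and 366 in mice 2 and 4, so mouse 1 reached almost the fetal range and mouse 2 stayed within the range of kidney tumors. Control fetal kidneys gave 1510, 1654 and 1710 CPM, and the dysmorphic ones 1769, 1466, 1750, 1857 and 1500, which overlapped.

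Per kilobase of annotated exon, Mki67 was the most abundant of the 43 in kidney tumors (28.3 CPM per kb), followed by Rrm2 (16.0), Mcm6 (12.0) and Top2a (10.2). In control kidneys the order began with Tyms (5.25 CPM per kb) and Mcm6 (4.89), ahead of Mki67 (4.09), while Cdk1 was at 0.296 and Iqgap3 was lowest at 0.0784. In control fetal kidneys Mki67 was at 161 CPM per kb, Top2a at 63.7 and Ccna2 at 47.8.

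The comparison of kidney tumors with control kidneys asked how far division genes rose with tumor formation. Of the 43 genes, 41 were called higher and none lower, beside 12.5% of all 23578 genes tested that were called higher (edgeR quasi-likelihood test, Benjamini-Hochberg adjusted p under 0.05). The median log2 fold change of the 43 was 2.97, and that of all genes 0.05. Every tumor-bearing mouse was above every control mouse for 42 of the 43, which 15.8% of all genes met.

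Genes of mitosis were among those with the largest changes. Cdk1, the kinase that starts mitosis, was 1.55, 1.38 and 1.44 CPM in control kidneys and 14.0 to 23.0 in kidney tumors (median 19.5), a log2 fold change of 3.69 ± 0.23 (SE, adjusted p = 0.000112). Its partner Ccnb1 (cyclin B1) went from 1.40, 0.934 and 1.77 CPM to 14.7 to 22.9 (log2 fold change 3.69 ± 0.29). The groups were far apart for both genes. Among the 6 cyclin and CDK genes 5 rose, and the exception was Ccne2.

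All 5 mitotic kinase and passenger genes rose, by log2 fold changes of 2.57 (Aurka, which acts at spindle poles) to 3.58 (Birc5, survivin, which holds Aurora B at the centromere). Aurkb, the kinase that corrects faulty spindle attachments, was 0.292, 0.388 and 0.471 CPM in control kidneys and 3.60 to 4.69 in kidney tumors. All 5 genes of the spindle checkpoint, cohesin protection and anaphase rose, from Bub1b (2.53) to Bub1 (3.61). Bub1, a kinase that signals unattached chromosomes, was 1.30, 0.957 and 1.42 CPM in control kidneys and 11.6 to 17.8 in kidney tumors.

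All 8 genes of the kinetochore, spindle and centriole rose, and their median was 3.37 on the log2 scale. Dlgap5, which stabilizes spindle fibers, was the highest of them at 3.67 ± 0.27, and Kif11, the motor that pushes spindle poles apart, the lowest at 2.78 ± 0.24. Kif11 measured 4.00, 3.95 and 6.30 CPM in control kidneys and 24.6 to 40.9 in kidney tumors. Ndc80, which grips microtubules at the kinetochore, went from 0.979, 0.745 and 1.16 CPM to 6.92 to 11.2.

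The 6 genes of cytokinesis and the cell cortex all rose but were spread widely. Iqgap3, a scaffold linked to growth of dividing cells, rose by 3.84 ± 0.22, from 0.823, 0.948 and 0.907 CPM to 10.9 to 15.6, and Racgap1, part of the central spindle, by 3.35 ± 0.21. Kif23, the motor that works with Racgap1 in the same complex, rose by only 0.83 ± 0.23 (adjusted p = 0.0377), the weakest of the called genes. It measured 10.7, 8.998 and 8.736 CPM in control kidneys and 10.9 to 22.5 in kidney tumors, so the lowest tumor was level with the highest control. Kif23 was not called when any 1 control mouse, fusion mouse 2 or fusion mouse 6 was left out, nor with sex as a covariate, without the filter on low counts, in the joint fit, or without the kidney tumors of mice 1, 4 and 5, and its log2 fold change ran from 0.66 to 0.93 over the alternatives.

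The S phase genes were more varied. The 4 MCM genes, subunits of the replicative helicase, rose by 1.27 ± 0.19 (Mcm6) to 2.19 ± 0.25 (Mcm5). Mcm2 was 7.40, 8.96 and 8.50 CPM in control kidneys and 16.6 to 39.6 in kidney tumors (median 30.3), with the 1 tumor of mouse 5 lowest. Top2a, the topoisomerase that untangles DNA, rose by 3.14 ± 0.20, from 9.58, 8.58 and 12.6 CPM to 77.03 to 111. Esco2, which locks cohesin onto new DNA, rose by 2.84 ± 0.20, and Brca1, a repair factor, by 2.97 ± 0.21.

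The pair of genes for nucleotide supply gave different results. Rrm2, the small subunit of ribonucleotide reductase, rose by 2.74 ± 0.31, from 6.33, 5.51 and 7.69 CPM to 23.1 to 60.7. Tyms, thymidylate synthase, was 30.8, 33.7 and 31.4 CPM in control kidneys and 19.2 to 32.4 in kidney tumors (log2 fold change -0.40 ± 0.16, adjusted p = 0.106). The ranges overlapped. Ccne2, cyclin E2, which acts at entry into S phase, was the other gene not called, with 8.76, 7.11 and 6.96 CPM in control kidneys and 9.29 to 14.4 in kidney tumors (0.58 ± 0.19, adjusted p = 0.0571). Its exons share 17.4% of their bases with Ints8 on the opposite strand, and whether strand was used in counting is not known. The same holds for Sgo2a (35.0% shared with Kctd18), Kif20a (29.3% with Cdc23), Ccna2 (12.5% with Exosc9) and E2f8 (11.2% with Gm2788), whose reads could be split or mixed with those neighbors.

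Of the transcription factors, E2f8, a repressor that closes S phase, had the largest rise of all 43 genes at 4.10 ± 0.35, from 0.701, 0.695 and 1.147 CPM to 11.2 to 22.4. Foxm1, the activator of mitosis genes, rose by 2.52 ± 0.27, from 1.02, 1.25 and 2.04 CPM to 6.86 to 8.92. E2f1, the activator of replication genes, rose by 1.92 ± 0.29, from 1.14, 1.38 and 1.35 CPM to 2.93 to 7.005. Of 12 leukocyte markers, 1 was called higher in kidney tumors, and their summed level was 109 to 416 CPM, highest in mouse 1, compared to 145 to 165 in control kidneys. Their part in the result was not tested. Without the kidney tumors of mice 1, 4 and 5, which held the most proximal tubule RNA, 41 of the 43 genes were called, of which 1 (Tyms) was lower. That fit called 9751 of all genes, 5044 of them higher, and the median log2 fold change of the 43 was 2.93.

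**Figure D2:**
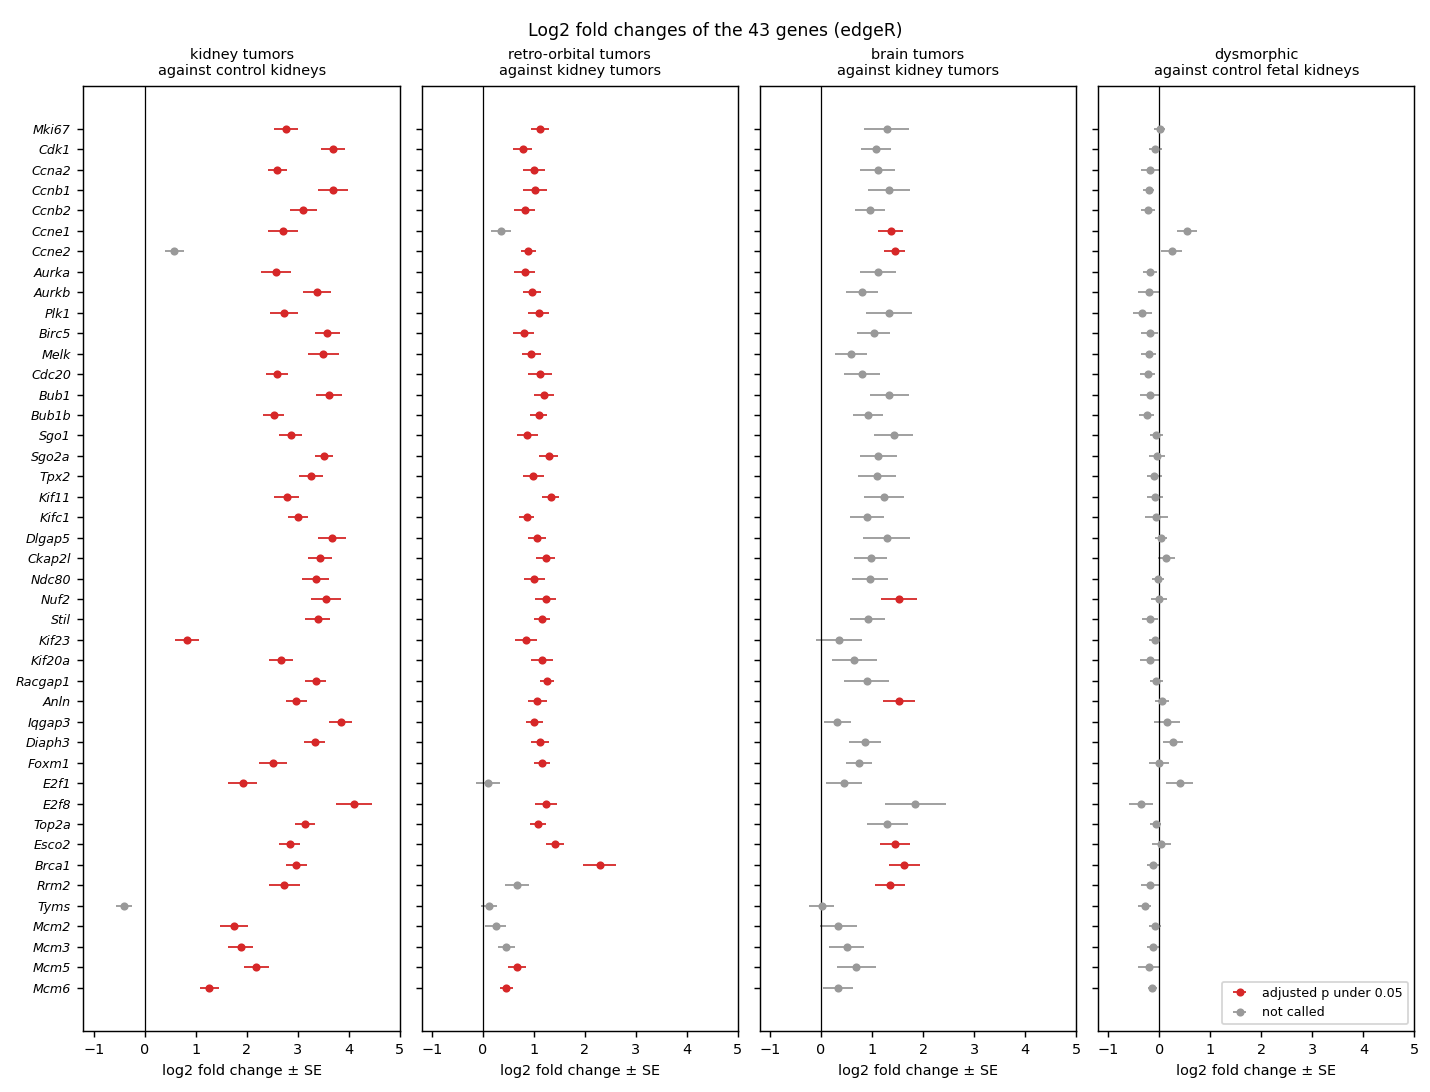
Log2 fold change ± SE of the 43 genes in 4 comparisons, with genes ordered by role and red points for adjusted p under 0.05. Most mitosis genes sit near 3 in kidney tumors against control kidneys and near 1 in retro-orbital against kidney tumors, brain tumors have wide errors, and all genes lie near 0 between fetal kidneys.

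No rise was called in non-transformed kidney from the fusion mice. Compared to control kidneys, none of the 43 genes was called in either direction by edgeR or by DESeq2. In the edgeR test none of the 43 had an unadjusted p under 0.05, and 0.00952% of all 21019 genes (2 genes) were called. That share holds for edgeR only. The 43 log2 fold changes ran from -0.46 (Ccne2) to 0.40 (Brca1, Diaph3 and Mcm6), with a median of -0.13. Kidney tumors compared to non-transformed kidneys gave 41 genes called higher and none lower, beside 12.1% of all genes, and a median log2 fold change of 3.02. Among the 43, Dlgap5 had the largest difference, 4.01 ± 0.25, with 0.433, 0.756, 0.690 and 0.620 CPM in non-transformed kidneys and 8.42 to 12.7 in kidney tumors. The genes not called were Tyms (-0.15 ± 0.18) and Mcm6 (0.84 ± 0.27, adjusted p = 0.0591). Mcm6 measured 16.7, 45.6, 35.5 and 21.7 CPM in the non-transformed kidneys of mice 1, 3, 4 and 5, which overlapped the lowest kidney tumor (42.2). Ccne2 passed the test here (1.02 ± 0.20, adjusted p = 0.00867). Both comparisons use the same kidney tumors. Within mice 1, 3, 4 and 5, the geometric mean of the 43 genes was 10.8, 6.52, 6.79 and 6.19 times as high in kidney tumor as in non-transformed kidney. With the mouse as a block, 38 of the 43 were called, beside 826 of all genes higher in place of 2654.

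Tumors of a mouse could differ. The 2 kidney tumor libraries of mouse 1 had geometric means of 20.2 and 9.95 CPM, and those of mouse 4 had 11.4 and 19.0. Proximal tubule markers in the same libraries summed to 3958 and 1044 CPM in mouse 1 and to 9477 and 5842 in mouse 4, and their part was not tested. In the libraries of mouse 1, Ccnb1 was 22.9 and 7.31 CPM, Bub1 20.7 and 6.13, and Kif11 56.0 and 25.0. In the same order Rrm2 was 46.9 and 26.2, Mcm2 20.5 and 20.9 and E2f1 4.55 and 4.62. The first 4 of these were higher in the first library, and Mcm2 and E2f1 were level. In mouse 2 the direction was opposite for Mcm2, which was 43.2 and 20.1 CPM where Bub1 was 12.1 and 24.0 and Rrm2 36.6 and 68.9, while Mki67 (356 and 386) and E2f1 (4.69 and 4.93) were nearly level. The libraries of mouse 3 had geometric means of 14.3 and 14.7 CPM. Each tumor was sequenced as 1 library, so these differences have no replicate check.

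Retro-orbital tumors had higher levels than kidney tumors for most of the genes. Of the 43, 37 were called higher and none lower, beside 8.26% of all 22136 genes, with a median log2 fold change of 1.01 compared to -0.09 for all genes. Every retro-orbital tumor was above every kidney tumor for 30 of the 43, which 8.23% of all genes met. All genes of the mitotic kinases, the spindle checkpoint, the kinetochore and spindle, and cytokinesis were called, with log2 fold changes from 0.80 (Birc5) to 1.33 (Kif11).

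Cdk1 was 38.3, 22.9, 30.6 and 41.7 CPM in the retro-orbital tumors of mice 2, 3, 5 and 6 (0.78 ± 0.19, adjusted p = 0.0208), and the tumor of mouse 3 fell just inside the kidney tumor range. Ccnb1 was 45.4, 19.8, 32.0 and 51.0 CPM, with mouse 3 again within the range of kidney tumors. The tumor of mouse 3 was the lowest of the 4 for 30 of the 43 genes. Kif11 was 107, 68.3, 69.6 and 95.7 CPM, all above the highest kidney tumor at 40.9. Foxm1 was 19.65, 17.02, 16.03 and 23.13 CPM, again clear of kidney tumors.

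Among the 43 genes Brca1 had the largest difference, 2.29 ± 0.32 (adjusted p = 0.0021). It measured 117, 48.1, 60.5 and 173 CPM in the retro-orbital tumors, 16.8 to 25.1 in kidney tumors and 63.4 to 78.8 in control fetal kidneys. The tumors of mice 2 and 6 were therefore above every fetal kidney, while those of mice 3 and 5 were below most of them. Esco2 followed (1.41 ± 0.17), at 40.3, 24.0 and 26.2 CPM in mice 2, 3 and 5 and 35.6 in mouse 6, compared to 10.1 to 14.4 in kidney tumors. Kif11 came next (1.33 ± 0.17).

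The 6 genes not called all act in S phase or its onset. They were Mcm2 (0.25 ± 0.21), Mcm3 (0.46 ± 0.17), Rrm2 (0.67 ± 0.24), Tyms (0.12 ± 0.16), E2f1 (0.10 ± 0.23) and Ccne1, cyclin E1 (0.36 ± 0.20). Mcm2 was 33.6, 34.3, 36.3 and 32.2 CPM in retro-orbital tumors, inside the kidney tumor range. E2f1, at 5.30, 4.53, 5.78 and 5.88 CPM, was inside it too. Whether the S phase genes changed less than the mitosis genes was not tested.

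Within each of the 4 mice the geometric mean of the 43 genes was higher in the retro-orbital than in the kidney tumor, by 2.05, 1.61, 2.19 and 2.14 times in mice 2, 3, 5 and 6. With the mouse as a block 34 of the 43 were called, beside 1247 of all genes higher in place of 1828. Without mouse 2, 26 were called beside 903 of all genes, and without mouse 6, 26 beside 926. Without the kidney tumors of mice 1, 4 and 5, 31 were called beside 2137 of all genes, and the median of the 43 was 1.04. Endothelial markers (6 genes) moved with the site as well, with summed levels of 936 to 1382 CPM in retro-orbital and 410 to 717 in kidney tumors, and leukocyte markers (12 genes) summed to 199 to 356 and 109 to 416. Their part in the result was not tested.

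**Figure D3:**
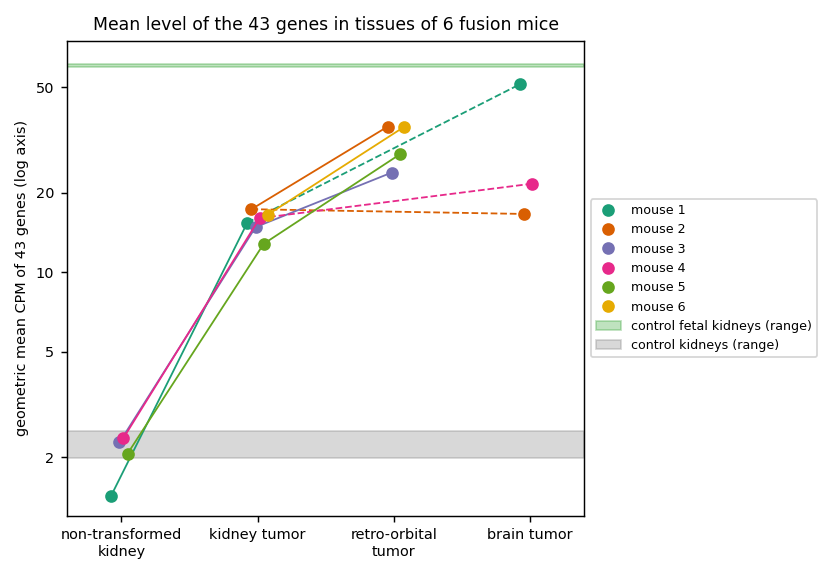
Geometric mean CPM of the 43 genes (log axis) in each tissue of the 6 fusion mice, with solid lines joining kidney samples and retro-orbital tumors of a mouse, dashed lines joining its kidney and brain tumors, and bands for the range of the fetal and adult controls. All 4 lines to retro-orbital tumors climb, while of the lines to brain tumors that of mouse 1 reaches 51.3 and that of mouse 2 stays flat.

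Brain tumors gave a split result. Compared to kidney tumors, 7 of the 43 genes were called higher and none lower, beside 4.54% of all 23391 genes, although the median log2 fold change was 1.03, and 32 of the 43 had an unadjusted p under 0.05. Every brain tumor was above every kidney tumor for 12 of the 43, which 6.00% of all genes met. The 7 were Brca1 (1.63 ± 0.30), Anln (1.53 ± 0.31), Nuf2 (1.52 ± 0.35), Esco2 (1.45 ± 0.29), Ccne2 (1.44 ± 0.20), Ccne1 (1.36 ± 0.25) and Rrm2 (1.35 ± 0.30), with adjusted p from 0.00818 (Ccne2) to 0.0329 (Nuf2).

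The brain tumor of mouse 1 stood apart. It was the highest of the 3 brain tumors for 41 of the 43 genes and more than 2 times as high as the next for 27. Top2a was 442, 95.02 and 126 CPM in the brain tumors of mice 1, 2 and 4. E2f8 was 123, 11.9 and 21.4 CPM, so that of mouse 1 was above every fetal kidney (47.8 to 102) and that of mouse 2 within the range of kidney tumors. E2f8 gave the largest log2 fold change of the 43 genes in this comparison, 1.85 ± 0.60, without passing the test (adjusted p = 0.0827). Kif23 was 42.3, 11.3 and 10.1 CPM, the last 2 near the level of control kidneys. Within mice 1, 2 and 4 the geometric mean of the 43 genes in the brain tumor was 3.33, 0.961 and 1.35 times that in the kidney tumor, so in mouse 2 it was no higher.

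For the cyclin E genes, mouse 1 was not the highest. Ccne1 was 8.71, 9.18 and 6.75 CPM in the brain tumors of mice 1, 2 and 4, compared to 2.32 to 4.08 in kidney tumors and 3.80 to 4.88 in retro-orbital tumors. Ccne2 was 29.0, 36.7 and 25.6 CPM, compared to 9.29 to 14.4 in kidney tumors. Rrm2 was 152, 73.4 and 104 CPM, all above the kidney tumors (23.1 to 60.7) and the first and last above every control fetal kidney (57.5 to 77.1). Anln, anillin, which organizes the cleavage ring, was 129, 86.7 and 38.9 CPM in the same order of mice. Without mouse 1, 1 gene was called and the median log2 fold change of the 43 was 0.29. Without mouse 2 the count was 2, without mouse 3 it was 4, and without the kidney tumors of mice 1, 4 and 5 it was 1. Leaving out any animal lowered the calls over all genes too, most of all without mouse 2. The member counts from those fits alone therefore do not show a weaker change of the 43 genes. With the mouse as a block none of the 43 was called (5 had an unadjusted p under 0.05), but that fit called 0 of all genes too. DESeq2 called 26 of the 43 beside 2409 of all genes higher, and the joint fit of all groups 32 beside 3446, compared to 1062 genes higher in the test above. Brain markers were highest in mice 2 and 4, where the 43 genes were lowest. Of 12 leukocyte markers 1 was called lower in brain than in kidney tumors (median log2 fold change -1.48). Of 6 endothelial markers 2 were called lower (median -1.18), beside 982 of all genes called lower. The part of these markers in the result was not tested.

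Brain and retro-orbital tumors were compared directly. None of the 43 genes was called by edgeR, beside 1.73% of all 21037 genes called in either direction, and the median log2 fold change was -0.05. An unadjusted p under 0.05 was found for Ccne1, higher in brain tumors (0.92 ± 0.25), and Iqgap3, lower (-0.78 ± 0.32). DESeq2 called 1 of the 43, beside 3087 of all genes in either direction. Without mouse 1, 2 of the 43 were called, both lower in brain tumors, beside 1316 of all genes. The median log2 fold change of the 43 was then -0.74, and 21 had an unadjusted p under 0.05 in the edgeR test. Without mouse 2 the median was 0.35, so the direction depended on which brain tumors were kept.

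**Figure D4:**
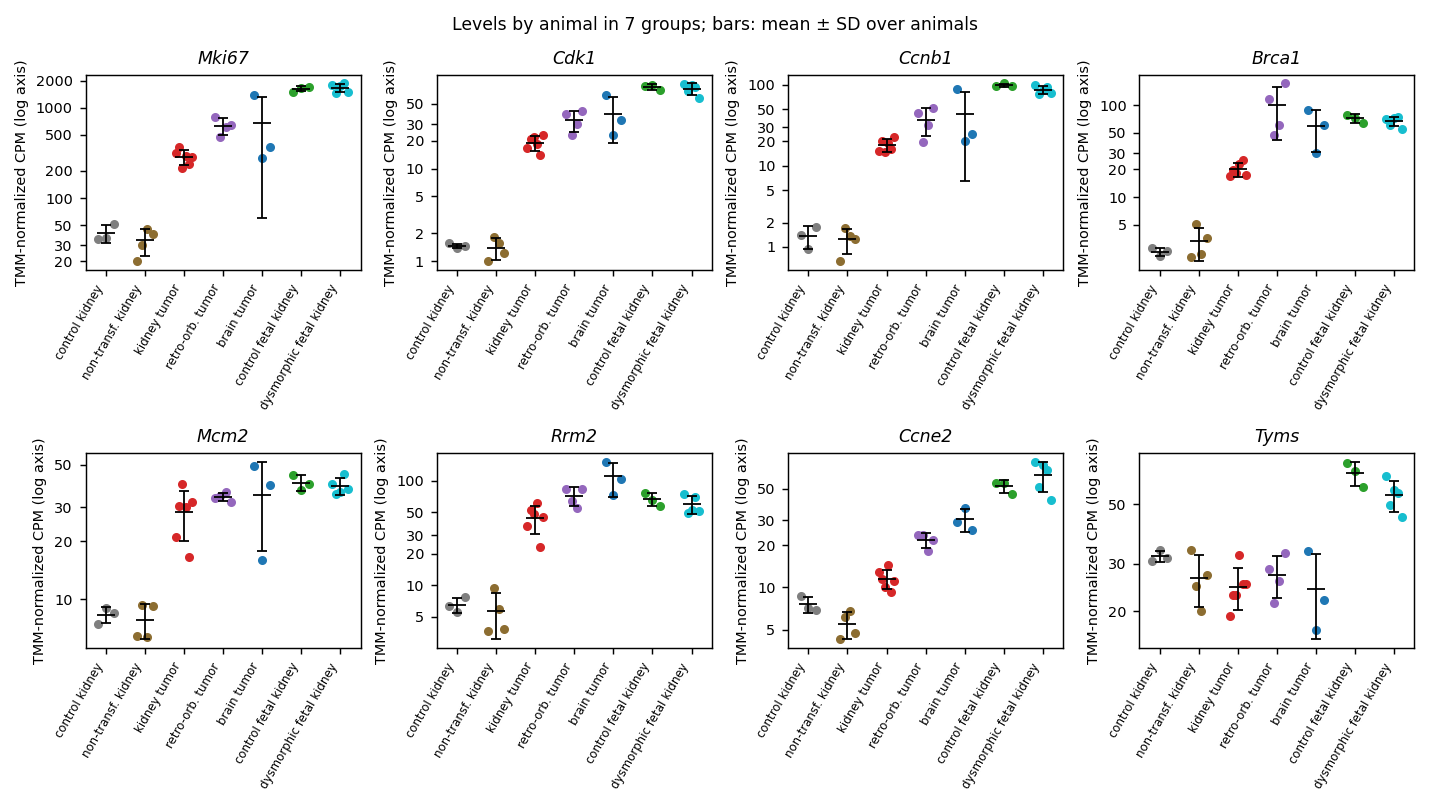
CPM of 8 genes (log axes) in every animal of the 7 groups, with the mean ± SD over animals as bars. Mki67, Cdk1 and Ccnb1 climb from control kidneys to tumors and fetal kidneys, Brca1 peaks in 2 retro-orbital tumors, Mcm2 overlaps between tumor sites, and Tyms is no higher in tumors than in control kidneys.

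In the fetal model no change in these genes was called. Dysmorphic compared to control fetal kidneys gave 0 of 43 genes called by edgeR and by DESeq2, beside 2.67% of all 22690 genes called in either direction. The log2 fold changes ran from -0.36 (E2f8) to 0.54 (Ccne1), with a median of -0.09. Ccne1 was the gene with an unadjusted p under 0.05 (0.54 ± 0.20, adjusted p = 0.192), with 13.9, 14.1 and 14.8 CPM in control and 22.0, 15.0, 27.4, 23.8 and 17.1 in dysmorphic fetuses 1 to 5, so the groups did not overlap. The count over all genes was unstable here, at 0 when any 1 of dysmorphic fetuses 1, 3 and 4 or of the 3 control fetuses was left out, 5 with sex as a covariate and 2731 by DESeq2, compared to 605 as given. Of the 5 dysmorphic fetuses 3 were male by Y-linked transcripts, and of the 3 controls 1. Tyms was 71.1, 66.5 and 58.0 CPM in control and 63.7, 49.6, 56.5, 55.2 and 44.9 in dysmorphic kidneys. Cdk1 was 78.8, 78.9 and 70.0 CPM in control and 82.4, 69.6, 80.1, 75.4 and 57.2 in dysmorphic kidneys, with fetus 5 lowest. The skeletal muscle transcripts named above differed between these groups, with 6 of 8 markers called higher in dysmorphic kidneys, calls that were lost in each of the 6 fits with a count of 0, with sex as a covariate and in the joint fit. Their part in the result was not tested.

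Control fetal kidneys were compared to adult control kidneys. All 43 genes were called higher, beside 25.1% of all 22859 genes, with a median log2 fold change of 5.06. The largest were E2f8 (6.57 ± 0.43), Bub1 (6.42 ± 0.27) and Ccnb1 (6.19 ± 0.29), and the smallest Tyms (1.05 ± 0.13), Mcm2 (2.31 ± 0.15) and Mcm6 (2.64 ± 0.18). Kif23 and Ccne2, which hardly rose in kidney tumors, were 3.25 ± 0.14 and 2.80 ± 0.17 higher on the log2 scale in fetal kidneys. Age, Cre driver and count table all differ between these groups and cannot be told apart. Markers of other tissue differed as well. Skeletal muscle markers summed to 1083 to 1356 CPM in the fetal samples, compared to 30.6 to 55.6 in adult controls. Of these 6 of 8, and of erythroid markers 6 of 8, were called higher in the fetal samples and 1 of each lower. Of proximal tubule markers 7 of 8, and of leukocyte markers 8 of 12, were called lower. The part of these tissues was not tested.

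A model with an interaction tested whether the fusion effect differed between models. The log2 change from control to kidney tumor exceeded that from control to dysmorphic fetal kidney for 41 of the 43 genes (called at adjusted p under 0.05), beside 6.87% of all 24444 genes, with a median difference of 3.09 compared to 0.16 for all genes. Mki67 differed by 2.79 ± 0.25, Ccnb1 by 3.93 ± 0.28, Mcm2 by 1.87 ± 0.32 and E2f8 by 4.50 ± 0.41. The exceptions were Ccne2 (0.36 ± 0.27, adjusted p = 0.439) and Tyms (-0.08 ± 0.20).

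Other genes of the same processes were taken from lists that leave out the 43. Of 36 other mitosis genes, 32 were called higher in kidney tumors than in control kidneys and none lower (median log2 fold change 2.5). This stood beside 12.5% of all genes called higher. In retro-orbital against kidney tumors 27 were called higher, beside 8.26% of all genes, and 1 lower (median 0.88). The lower one was Pttg1, securin, which restrains separase (-0.72 ± 0.21, adjusted p = 0.0407). Of 30 other replication genes, 26 were called higher in kidney tumors (median 1.41) and 12 in retro-orbital compared to kidney tumors (median 0.50), beside the same shares. In brain compared to kidney tumors 3 genes of each list were called higher, beside 4.54% of all genes, and between fetal kidneys none of either list was called.

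Of 18 other cell cycle regulators, most of them of the G1 phase, 6 were called higher and 1 lower in kidney tumors than in control kidneys, beside 2940 higher and 1534 lower of all 23578 genes. Ccnd1, Cdk4, Ccnd2 and Ccnd3 are named here after their values were seen. Ccnd1, cyclin D1, was 48.2 ± 3.09 CPM in control kidneys (SD, n = 3) and 208 ± 77 in kidney tumors (n = 6), a log2 fold change of 2.09 ± 0.35, and its partner Cdk4 rose by 2.59 ± 0.30. Rbl2, the pocket protein of resting cells, was the gene called lower (-0.50 ± 0.13, adjusted p = 0.0299). In tumors of other sites, genes of this list called lower were E2f5 in retro-orbital against kidney tumors (-1.12 ± 0.19), Cdk6 in brain against kidney tumors (-3.26 ± 0.51), and Cdk6 (-2.36 ± 0.40) and Ccnd2 (-1.90 ± 0.35) in brain against retro-orbital tumors. E2f5 was also called lower in dysmorphic against control fetal kidneys (-0.98, adjusted p = 0.035), where the 6 fits named above called no gene. Fetal kidneys and tumors were not compared directly. Compared to adult control kidneys, Ccnd2 was higher in fetal kidneys (2.75 ± 0.27) and Ccnd1 lower (-0.76 ± 0.26, adjusted p = 0.0452), while in kidney tumors Ccnd2 was at 8.28 ± 3.32 CPM, with 8.06 ± 1.32 in control kidneys. Ccnd3 was not called in either comparison (0.10 ± 0.23 in fetal kidneys and -0.70 ± 0.26 in kidney tumors).

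CDK inhibitors, which block the cycle, were higher in kidney tumors too. Of these 5 of 7 were called higher and none lower, beside 12.5% of all genes called higher. Cdkn1a (p21) was 2.07 ± 0.37 CPM in control kidneys and 8.41 ± 2.22 in kidney tumors (2.01 ± 0.30, adjusted p = 0.00302). Cdkn2a, the gene of p16 and p19ARF, was 0.00856 to 0.0188 CPM in control kidneys, about the floor of 3 counts per library, and 1.32 to 7.08 in kidney tumors. Cdkn2b, Cdkn2c and Cdkn2d were also called higher, by 2.91 ± 0.57, 2.07 ± 0.38 and 1.43 ± 0.27. In retro-orbital against kidney tumors Cdkn1c was called lower (-3.85 ± 1.02) and Cdkn2d higher (1.31 ± 0.26). In dysmorphic compared to control fetal kidneys Cdkn1a was called higher (1.13 ± 0.22, adjusted p = 0.0439), at 19.3 ± 4.91 CPM (n = 5) compared to 8.70 ± 0.422 (n = 3). This call was lost when any 1 of dysmorphic fetuses 1, 3 and 4 or of the 3 control fetuses was left out, with sex as a covariate, with the title prefix as a block and without the filter on low counts.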

How the data were processed

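Total RNA from fixed, paraffin-embedded tissue had been sequenced with a stranded kit, without removal of ribosomal RNA. The authors deposited raw counts per gene in 2 tables, one per mouse model (28 and 8 libraries), and no normalized values were used. The submitters' processing notes name STAR 2.5.2a, Bowtie2, FastQC, MultiQC and GRCm38 (mm10), while the counter, its strand setting and the annotation are not given in the sources used here. Among genes with low nonzero counts, 79.04 to 84.33% of the counts in a library were even numbers, so both mates of a pair may have been counted, and an alternative used halved counts. Gene IDs (53274 of 53379 matched, version ignored) were given symbols from the reference annotation.

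Libraries of one mouse and tissue were summed, giving 28 sums. Groups were compared with the quasi-likelihood F-test of edgeR 4.0.16 (R 4.3.3) after filterByExpr and TMM scaling within the compared groups, with Benjamini-Hochberg adjustment over all genes tested and a threshold of 0.05. All adjusted p below are from this test. A standard error was obtained as the size of the log2 change over the root of its F value. Test scripts were tested on simulated data. Alternatives were DESeq2 1.42.0, limma 3.58.1 voom per library, other scalings and filters, a joint fit, sex as a covariate, the mouse as a block, and leaving out each animal. The tables were not normalized together by the authors, so comparisons across models rest on this scaling. The libraries hold 80205573 counts or more, so counting error is small beside the spread between animals for all but the lowest genes.

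Tissues of a fusion mouse were paired by animal, from the labels. Deviations from the group means correlated at 0.323 to 0.386 between retro-orbital and kidney tumors of a mouse, at -0.089 to 0.113 between kidney tumors and non-transformed kidneys, and at -0.159 to -0.094 between brain and kidney tumors.

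The 43 members and the other lists were chosen with earlier results of these data known. Any of the 43 could be named. Animals' values were given for some members of each role, and for most of those on the other side of the threshold from the rest or with the largest or smallest changes. Genes of other lists were named mainly where they went against their list or inhibit the cycle, apart from Ccnd1, Cdk4, Ccnd2, Ccnd3 and Chaf1b, named after their values were seen. Some genes of the other lists are not reported here.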

Additional observations from a re-analysis of the deposited data

Results flagged for a closer look

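Of 172 gene levels tested for a sample far from the rest of its group, 3 were flagged, where 8.6 would be by chance at 1 in 20. The 172 levels do not cover the 43 genes in every group, so a group without a flag may not have been screened. Tpx2, a spindle assembly factor, stood at 3.52 CPM in mouse 4 among non-transformed kidneys, compared to 2.13 to 2.31 in mice 1, 3 and 5. Sgo1, which protects cohesin at the centromere, was 21.4 CPM in dysmorphic fetus 5 and 27.0 to 28.4 in the other 4. Foxm1 was 6.86 CPM in the kidney tumor of mouse 5 and 8.29 to 8.92 in the tumors of the other 5 mice. That mouse gave 1 kidney tumor library, which was also the lowest of the 6 mice for 27 of the 43 genes. It held proximal tubule markers at 7264 CPM, and the part of those markers was not tested.

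The change with the fusion differed between the adult and the fetal model for 41 of the 43 genes by the interaction test. Age, Cre driver, count table and the kind of tissue compared all differ between the models and cannot be told apart.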

How the results depend on the processing

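Of 149 counts of called genes recomputed under an alternative, 140 were within 1.5 times the reported count. The exceptions concern brain tumors. Compared to kidney tumors, 7 of the 43 genes were called, while DESeq2 called 26, the joint fit 32, and the fit without the kidney tumors of mice 1, 4 and 5, an alternative chosen after seeing the data, 1. With the mouse as a replicate block 0 of the 43 were called, as were 0 of all genes. Leaving out each animal gave 1 to 6, beside 300 (without mouse 2) to 1528 (without mouse 4) of all genes in either direction. Compared to retro-orbital tumors 0 were called, DESeq2 called 1 (Ccne1), and leaving out each animal gave 0 to 2 (Racgap1 and Kif23 without mouse 1, both lower). The cause was not tested. The block gave 38 called genes in place of 41 for kidney tumors against non-transformed kidneys and 34 in place of 37 for retro-orbital against kidney tumors, and it moved no other count. Of 2696 values of single genes under an alternative, 2578 kept direction and side of the threshold, 89 lost the call, 24 gained one and 5 changed sign. Tyms between kidney tumors and non-transformed kidneys became 0.05 without mouse 1 (-0.34 to 0.05 over left-out animals). E2f1 between retro-orbital and kidney tumors became -0.03 without the kidney tumors of mice 1, 4 and 5. Between brain and kidney tumors Kif23 became -0.61 without mouse 1 and -0.05 under the block, and Iqgap3 became -0.04 without mouse 1, with -0.61 to 0.70 and -0.04 to 0.64 over left-out animals. Called under every alternative were 40 of 41 genes for kidney tumors against control kidneys, 26 of 37 for retro-orbital against kidney tumors, and 0 of 7 for brain against kidney tumors. A limma-voom fit per library and a mouse block for brain against retro-orbital tumors were not run, since 1 mouse gave both. With 3 brain tumors and 3 mice in each control group, small changes may have been missed, and p-values measure the spread between these animals.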

Other observations

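Chaf1b, a subunit of the chromatin assembly factor that places histones behind the replication fork, belongs to the list of other replication genes and was singled out after its values were seen. It measured 1.46, 1.29 and 1.33 CPM in control kidneys 1 to 3 and 2.04, 14.0, 5.53 and 1.28 in the non-transformed kidneys of mice 1, 3, 4 and 5. In kidney tumors it ranged from 82.4 to 293 CPM, in retro-orbital tumors from 170 to 255 and in brain tumors from 87.9 to 359. Fetal kidneys, with 18.8 to 24.1 CPM in controls and 17.9 to 33.5 in dysmorphic kidneys, lay below every tumor, the opposite of the order seen for Mki67. The log2 fold change of Chaf1b from control kidneys to kidney tumors was 6.76 ± 0.51 (adjusted p = 0.000165), compared to 4.10 ± 0.35 for E2f8, the largest of the 43 cell cycle genes. Between control fetal and adult control kidneys Chaf1b differed by 3.99 ± 0.19.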
